A study of Mus musculus with 36 samples.

Results

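The arrays of T cells given an Egr2 hairpin were compared with those of T cells given any of 4 other hairpins, among arrays labelled tumor. Of the 36 arrays measured, 15 entered the comparison by their labels: 3 with the Egr2 hairpin and 3 each with a Ppp2r2d, Ptpn2, Arhgap5 or Alk hairpin. All 18193 genes with a probe set of a single symbol were tested, each read from 1 probe set. The mean of the 3 Egr2 arrays was set against the mean of the 4 other group means. All cells were CD8 T cells derived from OT-I, whose transgenic receptor recognises an ovalbumin peptide. Each group had received a short hairpin RNA (shRNA) by transduction, which is meant to lower 1 messenger RNA, and the cells were moved into mice bearing B16, a melanoma line. Per the labels, T cells were then taken from spleen or tumor. A LacZ hairpin, aimed at a bacterial gene that mouse cells lack, served as control. Its 3 arrays labelled tumor are given as levels and are part of no difference reported here. All 36 arrays, LacZ included, entered the main fit, which estimated the spread behind its p-values. The labels used here name neither the number nor the sex, age or strain of the host mice, and none of them says whether 3 arrays of a group came from separate mice. The p-values therefore measure the spread between arrays, which may be technical.

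Egr2 is a zinc-finger transcription factor that T cell receptor signals switch on through calcineurin and NFAT, together with its relatives Egr1 and Egr3. The corepressors Nab1 and Nab2 bind it. In T cells Egr2 and Egr3 are known for restraining receptor signalling, for a role in anergy and for a link to the cell cycle inhibitor p21, the product of Cdkn1a.

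Values are log2 levels as deposited, and a difference is a log2 difference with its standard error (SE). A gene is called where its p in limma's moderated test, adjusted over all genes by Benjamini and Hochberg's method, lay under 0.05. Because the arrays did not share 1 distribution, many results are also given after quantile normalization, which forces all arrays to the same distribution. Values without that remark are on the deposited scale unless their paragraph is about quantile-normalized values.

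The tissue labels ran against the markers of the tissues. Over the 15 arrays labelled tumor, the melanocyte gene Dct lay between -2.42 and -0.97, with a median of -1.86, whereas the 15 arrays of the same hairpins labelled spleen lay between 4.29 and 5.87 (median 5.06). Pdcd1, the inhibitory receptor PD-1, had a median of -1.16 in arrays labelled tumor and 6.37 in those labelled spleen. The macrophage gene C1qb had medians of -2.41 and 4.96. Melanocyte, macrophage and PD-1 transcripts were thus low in every array labelled tumor, the 3 Egr2 arrays included, and the tissue names below are those of the labels only. Cd8a, which defines the cells, had medians of 6.51 and 6.58. Several arrays stood apart. Egr2 array 2 had no value below -1.45 over all probe sets, while the lowest values of Egr2 arrays 1 and 3 were -4.03 and -4.32. Ptpn2 array 3 stopped at -1.38. Ptpn2 array 1 had a best correlation with any other array of 0.905, and its Gapdh probes at the 3' end read 2.94 above those at the 5' end.

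The Egr2 transcript was not lower in the arrays labelled with its hairpin. Its level was 3.49, 4.73 and 3.54 in the 3 Egr2 arrays. Values were 3.93, 3.56 and 4.05 with the Ppp2r2d hairpin, 0.36, 3.75 and 3.79 with Ptpn2, 2.50, 3.52 and 2.80 with Arhgap5, and 2.91, 3.71 and 4.03 with Alk. The LacZ arrays read 3.86, 3.43 and 4.72. On these deposited values Egr2 array 2 was the highest of the 18, but after quantile normalization LacZ array 3 (4.82) exceeded it (4.20). The low value was that of Ptpn2 array 1, and the groups overlapped. The mean of 3.92 ± 0.70 (SD, n = 3) exceeded that of the 4 other groups by 0.68 ± 0.43 (SE), with an adjusted p of 1 in limma. After quantile normalization the difference was 0.56 ± 0.41 (adjusted p = 0.637), and the gene's other probe set differed by 0.62, with an adjusted p of 0.917. In arrays labelled spleen, the 3 Egr2 arrays lay between 3.89 and 4.08, all below the 12 others (4.41 to 5.47), with a difference of -0.97 ± 0.43 and an adjusted p of 0.873. The hairpin's own target therefore did not check the labels in arrays labelled tumor, and the groups below are those the labels name. The targets of the other hairpins gave no call in this comparison. The 3 Egr2 arrays exceeded the 4 groups by 0.46 for Ppp2r2d, 0.20 for Ptpn2 and 0.39 for Arhgap5 and differed by -0.23 for Alk, each with an adjusted p of 1. That does not test whether those hairpins lowered their own targets. After quantile normalization the Ptpn2 arrays read 5.12, 5.28 and 5.30 for Ptpn2, below every other array labelled tumor. The Ppp2r2d arrays read 3.74, 4.00 and 4.00 for Ppp2r2d, below all others except Ptpn2 array 1 (2.53). The Arhgap5 arrays overlapped the others for Arhgap5, and so did the Alk arrays for Alk.

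On the deposited values 10 genes in 18193 passed the threshold. The 3 Egr2 arrays were lower for Cdkn1a, for Bcat1, which encodes the cytosolic branched-chain aminotransferase, for the centrin gene Cetn4, and for the Y-linked Eif2s3y, Kdm5d and Orly. They were higher for the carbonic anhydrase gene Car1 of red cells, for G0s2, an inhibitor of the lipase that breaks down triglycerides, for Afdn, the junction protein afadin, and for Xist. These calls were 0.055% of all tested, 4 higher (0.022%) and 6 lower (0.033%), and 786 genes (4.32%) had an unadjusted p under 0.05. In 17 genes the 3 Egr2 arrays all lay above the 12 others (0.0934%) and in 10 all below (0.055%). Cdkn1a and Bcat1 were the called genes without overlap. Over all genes the median difference was 0.09 and the median SE 0.28.

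Cdkn1a, the gene of p21, showed the lowest levels with the Egr2 hairpin. It read 0.45, 1.30 and 1.29 in the 3 Egr2 arrays. Levels with the other hairpins were 2.67, 2.59 and 2.63 (Ppp2r2d), 2.69, 2.52 and 2.39 (Ptpn2), 2.64, 2.64 and 1.67 (Arhgap5) and 1.75, 2.16 and 1.86 (Alk). LacZ arrays, which entered the fit of the spread but not the difference, read 2.11, 2.46 and 2.91. Every Egr2 array was thus below every one of the 15 other arrays labelled tumor. The group mean was 1.02 ± 0.49 (SD, n = 3) against 2.35, a difference of -1.33 ± 0.21 (SE), with an adjusted p of 0.00266 in limma. After quantile normalization it was -1.44 ± 0.20 (adjusted p = 0.000337). The call ended without Egr2 array 1 on the deposited values (-1.05, adjusted p = 0.17), while after quantile normalization it held with each of the 15 arrays left out in turn. A second, dimmer probe set of Cdkn1a differed by -0.94 and did not pass in a test over all probe sets (adjusted p = 0.417).

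Bcat1, whose enzyme moves amino groups from leucine, isoleucine and valine, read 0.64, 0.56 and 1.04 with the Egr2 hairpin. The other levels were 2.40, 1.98 and 2.27 with Ppp2r2d, 1.80, 2.48 and 2.01 with Ptpn2, 1.71, 1.77 and 1.31 with Arhgap5, and 1.61, 1.76 and 2.16 with Alk. The LacZ arrays were at 2.49, 1.38 and 1.74. Again no Egr2 array reached any other array. The mean of 0.74 ± 0.26 (SD, n = 3) was 1.19 below the 4 other groups (difference -1.19 ± 0.21, adjusted p = 0.00883), and -1.20 ± 0.11 after quantile normalization (adjusted p = 1.22e-07). With single arrays left out, limma kept the call in 13 of 15 fits on the deposited values, not without Egr2 array 1 (-1.14, adjusted p = 0.17) or Egr2 array 2 (-1.10, adjusted p = 0.0905), and in 15 of 15 after quantile normalization. The gene's other probe sets, both dimmer, gave 0.54 and -0.41, so the call rests on 1 of its 3 probe sets, and with the mean of the 3 it was -0.35 with an adjusted p of 1.

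The stretches of 250 bases upstream of these genes' start sites were searched because Egr proteins bind a GC-rich motif, and they are shown for the 2 genes called without overlap and for Tjp1, a gene called after quantile normalization whose promoter holds that motif. Motifs were GCGTGGGCG or GCGGGGGCG for Egr proteins and GGGCGG, the GC box, for Sp1-type factors, both strands searched. Capitals mark a match, and sequences are RefSeq's on GRCm38.p6, 5′ to 3′ on the gene's strand. Cdkn1a (chr17:29093519-29093768, plus strand, the second of its 2 listed starts) holds 2 GC boxes and no Egr motif. Bcat1 (chr6:145076158-145076407, minus strand, the first of 2 starts) holds neither. Tjp1 (chr7:65371245-65371494, minus strand) holds 1 Egr motif, which overlaps 1 of its 2 GC boxes.
Cdkn1a: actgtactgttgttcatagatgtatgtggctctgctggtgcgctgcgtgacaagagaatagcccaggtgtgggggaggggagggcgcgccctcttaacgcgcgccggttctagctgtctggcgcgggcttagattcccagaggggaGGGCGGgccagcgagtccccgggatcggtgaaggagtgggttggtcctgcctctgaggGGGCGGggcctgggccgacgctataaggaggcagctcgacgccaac
Bcat1: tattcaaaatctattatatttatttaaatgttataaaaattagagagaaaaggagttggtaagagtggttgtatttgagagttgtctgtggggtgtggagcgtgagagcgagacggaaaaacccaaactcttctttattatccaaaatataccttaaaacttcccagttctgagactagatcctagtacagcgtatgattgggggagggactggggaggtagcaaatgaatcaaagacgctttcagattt
Tjp1: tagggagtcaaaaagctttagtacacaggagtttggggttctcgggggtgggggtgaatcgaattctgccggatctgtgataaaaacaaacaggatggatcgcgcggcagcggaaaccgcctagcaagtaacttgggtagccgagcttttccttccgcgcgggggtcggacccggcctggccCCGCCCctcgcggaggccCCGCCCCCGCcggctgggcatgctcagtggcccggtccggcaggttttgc
An Egr motif was present in 3.06% of all 32851 promoter windows, and in 5.58% of the 14452 tested genes that had one. Of the 10 genes called on the deposited values, 9 had a promoter in RefSeq's table and 0 of these held it. Among genes called after quantile normalization it was present in 3 of 30 higher genes with a promoter (Ncdn, Prxl2a and Tjp1) and in 0 of 38 lower ones. The GC box was present in 5 of the 9 genes (55.6%) and in 53.4% of the tested genes with a promoter. A match describes these letters in this window and is no evidence of binding.

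G0s2 and Afdn were the higher genes outside sex-linked and red cell transcripts. G0s2 read 3.13, 2.85 and 2.43 with the Egr2 hairpin, 1.36, 1.08 and 1.44 with Ppp2r2d, 0.38, 1.29 and 0.34 with Ptpn2, 2.00, 2.14 and 1.85 with Arhgap5 and 1.31, 1.67 and 2.45 with Alk. Only Alk array 3 reached the lowest Egr2 array, but the LacZ arrays, at 3.13, 1.79 and 2.72, covered the range of the Egr2 arrays. The difference from the 4 hairpins was 1.36 ± 0.26 (mean 2.80 ± 0.35 SD, n = 3, adjusted p = 0.0253), and 1.29 ± 0.23 after quantile normalization (adjusted p = 0.0058). Without Egr2 array 1 the call ended on both scales (1.20, adjusted p = 0.337, and 0.99, adjusted p = 0.0866), and it also ended on the deposited values without Egr2 array 2 (adjusted p = 0.11) or Alk array 2 (adjusted p = 0.0511). Afdn read 4.12, 3.16 and 2.78 with Egr2 and between 1.72 and 2.89 in the 12 other hairpin arrays, where the top value was that of Alk array 3. Its difference was 1.26 ± 0.23 (adjusted p = 0.0123), and quantile normalization left it at 1.15 ± 0.21 (adjusted p = 0.009). Without Egr2 array 1, the highest of the 3, it was 0.87 with an adjusted p of 0.406 on the deposited values and 0.61 with an adjusted p of 0.0928 after quantile normalization. The other, dimmer probe set of Afdn differed by 0.39 (0.33 after quantile normalization) and did not pass in a test over all probe sets.

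Cetn4, a centrin of centrosomes and cilia, read -1.59, -0.65 and -2.38 with the Egr2 hairpin. The other arrays lay at -0.12, -0.75 and -0.06 for Ppp2r2d, -0.17, 0.10 and 0.56 for Ptpn2, -0.92, 0.44 and -0.56 for Arhgap5 and 1.26, 0.76 and 0.05 for Alk. Egr2 array 2 overlapped the lowest of these. The difference was -1.59 ± 0.31 (adjusted p = 0.0332), or -1.79 ± 0.30 once the arrays were quantile normalized (adjusted p = 0.00323). On the deposited values the call held in 8 of 15 fits that left out 1 array. It ended without Egr2 array 1 (adjusted p = 0.241) or Egr2 array 3 (-1.17, adjusted p = 0.478), and without Ppp2r2d arrays 1 or 3, Arhgap5 array 2 or Alk arrays 1 or 2 (adjusted p 0.0522 to 0.0656). After quantile normalization it ended without Egr2 array 3 (-1.53, adjusted p = 0.0565). The other, dimmer probe set of Cetn4 differed by 0.06 (0.03 after quantile normalization), so the call rests on 1 of its 2 probe sets.

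**Figure D1:**
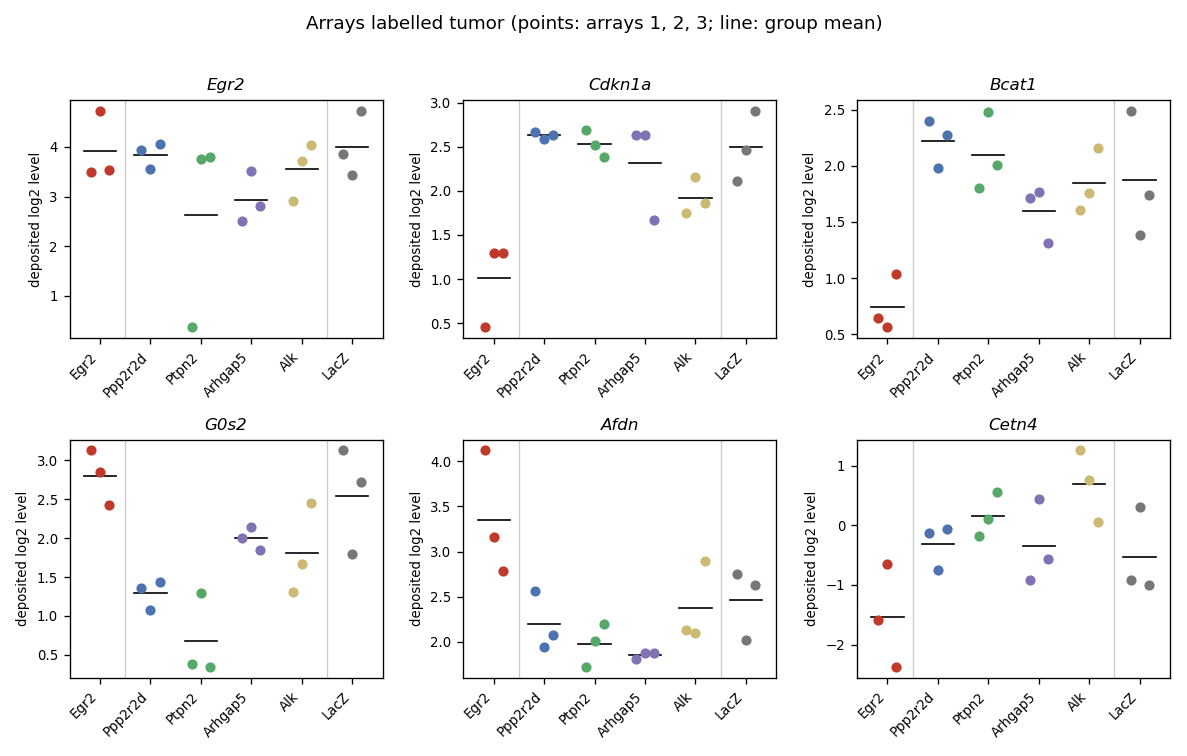
Deposited log2 levels (vertical axis) of Egr2 and of 5 called genes in the 18 arrays labelled tumor, by hairpin (horizontal axis); points are arrays 1, 2 and 3 from left to right and lines are group means. The Egr2 arrays lie below all others for Cdkn1a and Bcat1, overlap the others for Egr2, Cetn4, G0s2 and Afdn, and LacZ reaches the Egr2 levels of G0s2.

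The largest falls were of Y-linked genes, and they followed which hairpin groups carried Y-linked transcripts. Eif2s3y, the Y-linked copy of a translation initiation factor subunit, read -3.24, -1.22 and -3.32 in the Egr2 arrays. It was 5.58, 5.51 and 5.88 with the Ptpn2 hairpin and 5.69, 5.66 and 5.51 with Arhgap5. The Ppp2r2d arrays (-2.86, -2.86 and -3.36), the Alk arrays (-1.67, -2.06 and -2.02) and the LacZ arrays (-2.64, -2.74 and -3.10) were as low as the Egr2 arrays. The reference of 4 hairpins thus joined 2 groups with Y-linked transcripts and 2 without. Against it Eif2s3y differed by -4.18 ± 0.32 (adjusted p = 1.14e-09), the histone demethylase gene Kdm5d by -2.62 ± 0.38 (adjusted p = 0.000681) and the noncoding Orly by -2.43 ± 0.41 (adjusted p = 0.00643). Without Egr2 array 1 the adjusted p was 0.0526 for Kdm5d and 0.118 for Orly, and 0.0625 for Orly without Egr2 array 3. Xist, the noncoding RNA that silences an X chromosome in female cells, ran the other way. It read 6.55, 7.05 and 6.01 with Egr2, 6.44, 6.09 and 6.41 with Ppp2r2d and 6.66, 6.73 and 6.93 with Alk, but -1.05, 3.20 and 0.71 with Ptpn2 and 1.12, -0.16 and -0.39 with Arhgap5, a difference of 2.98 ± 0.43 with an adjusted p of 0.000681. Uty was at -1.78 with an adjusted p of 0.0976 and passed after quantile normalization (-2.00, adjusted p = 0.00049). In arrays labelled spleen the same groups were split, with Eif2s3y means of 5.47 and 5.50 for Ptpn2 and Arhgap5 and between -3.35 and -2.51 for the other 4.

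**Figure D2:**
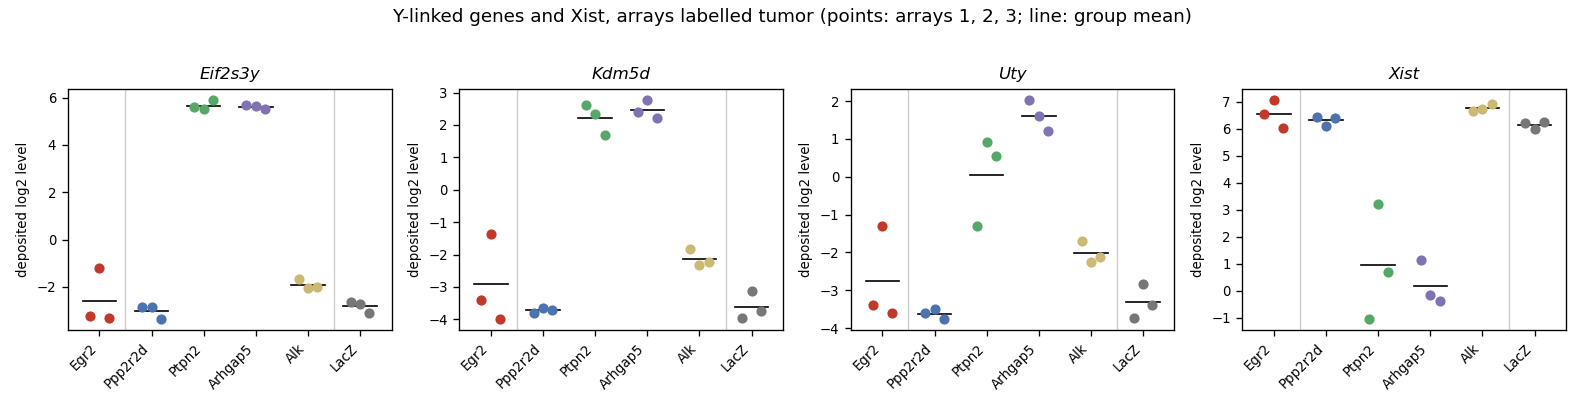
Deposited log2 levels (vertical axis) of 3 Y-linked genes and Xist in the 18 arrays labelled tumor, by hairpin; points are arrays and lines are group means. Eif2s3y lies above 5.5 in the 6 Ptpn2 and Arhgap5 arrays and below -1.2 in the 12 others, and Xist is high where Eif2s3y is low.

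The comparison was therefore repeated with the Ppp2r2d and Alk hairpins alone as the reference, a step chosen after the sex-linked values were seen. These 6 arrays carried Xist and no raised Y-linked transcripts, as the 3 Egr2 arrays did. In limma 9 genes were called (0.0495%), 2 higher (0.011%) and 7 lower (0.0385%), and after quantile normalization 80 (0.44%), 33 higher (0.181%) and 47 lower (0.258%). Cdkn1a differed by -1.26 (adjusted p = 0.0247), Bcat1 by -1.29 (adjusted p = 0.0247) and Cetn4 by -1.73 (adjusted p = 0.0454). G0s2 (1.25, adjusted p = 0.12) and Afdn (1.07, adjusted p = 0.122) no longer passed on the deposited values, but did after quantile normalization (1.30, adjusted p = 0.0115, and 1.11, adjusted p = 0.0232). Eif2s3y differed by -0.12, Kdm5d by 0.00 and Xist by -0.01. Ctse, an aspartic protease named here after its values were seen, was called at 1.86 (adjusted p = 0.0454). It read 5.04, 6.26 and 5.24 with Egr2 and 5.64 to 5.92 with Ppp2r2d, but 0.91, 0.94 and 2.67 with Alk. Against Ppp2r2d alone it differed by -0.29, so the rise lay in the low Alk arrays. After quantile normalization the LacZ arrays (1.34, 0.28 and 2.68) were as low for Ctse as the Alk arrays (1.21, 1.03 and 2.47).

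Car1, a transcript of red cells, rose with the Egr2 hairpin, and it was highest in Egr2 array 2. It read 3.08, 4.99 and 2.59 in the Egr2 arrays, -0.18, 1.54 and 1.06 with Ppp2r2d, -2.09, 2.27 and -1.04 with Ptpn2, -2.49, -1.30 and -1.37 with Arhgap5 and -1.28, -0.38 and 2.75 with Alk. LacZ arrays read 1.68, -0.39 and 3.14. Alk array 3 and LacZ array 3 reached the lower Egr2 arrays. Car1 was higher by 3.76 ± 0.70 (adjusted p = 0.0171), or 4.04 ± 0.79 on quantile-normalized arrays (adjusted p = 0.0142). Its call was lost on both scales without Egr2 array 1 (4.00, adjusted p = 0.17, and 4.12, adjusted p = 0.0582) and without Egr2 array 2 (3.04, adjusted p = 0.26, and 3.57, adjusted p = 0.154). Klf1, the erythroid transcription factor, read 0.06, 1.93 and -0.25 against -2.19 to 0.63 in the 12 others. It passed after quantile normalization (2.07 ± 0.43, adjusted p = 0.0208), though not without Egr2 array 2 (1.49, adjusted p = 0.288), and not on the deposited values (1.82 ± 0.40, adjusted p = 0.0742). A pair of further markers is named after their values were seen. The haemoglobin gene Hbb-b2 read 0.64, 5.94 and 1.85, and Slc4a1, the band 3 anion exchanger of red cells, 0.11, 5.31 and 0.89. Neither Hbb-b2 (2.21 ± 1.06) nor Slc4a1 (2.23 ± 0.91, adjusted p = 0.932) passed. After quantile normalization Ptpn2 array 2, Alk array 3 and LacZ array 3 read 4.84, 4.63 and 4.47 for Hbb-b2 and 3.76, 2.71 and 3.65 for Slc4a1. All of these exceeded Egr2 arrays 1 and 3, at 0.73 and 1.91 for Hbb-b2 and 0.15 and 0.88 for Slc4a1.

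Of 11 erythroid markers 7 were measured. Their mean level was 0.01, 2.65 and 0.12 in the Egr2 arrays, -1.31, -0.10 and -0.66 with Ppp2r2d, -1.55, 1.10 and -0.65 with Ptpn2, -1.74, -1.06 and -1.14 with Arhgap5, -0.85, -1.01 and 0.74 with Alk, and -0.75, -0.74 and 1.07 with LacZ. Egr2 array 2 stood highest, and single Ptpn2, Alk and LacZ arrays exceeded the other 2 Egr2 arrays. The list's median difference was 1.82 (2.00 after quantile normalization), beside 0.09 (0.01) over all genes. All 7 were higher in the Egr2 group, and of these 1 was called on the deposited values and 2 after quantile normalization. In such bulk samples a larger share of cells of a type and more RNA per cell cannot be told apart. The part of red cell RNA in the other differences was not tested.

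**Figure D3:**
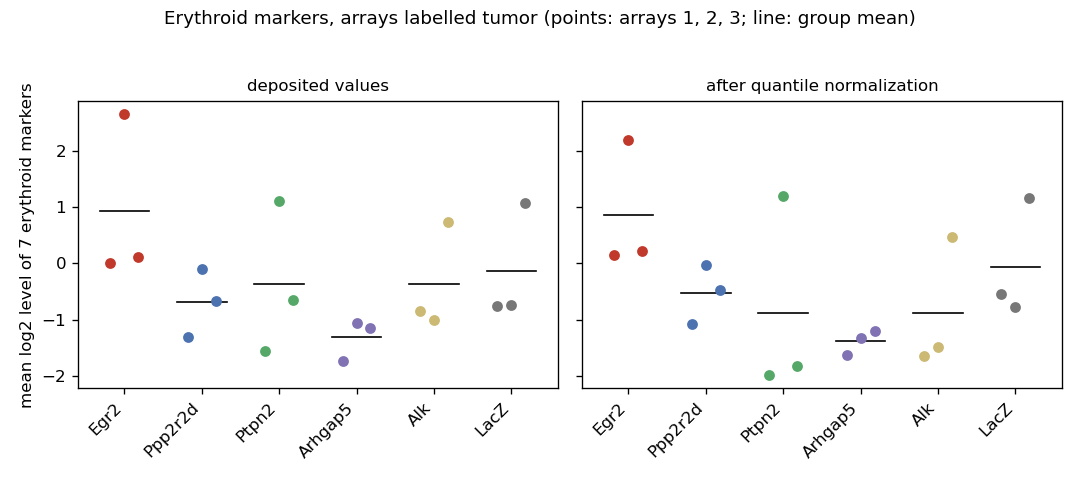
Mean log2 level of 7 erythroid markers (vertical axis) in the 18 arrays labelled tumor, by hairpin, on the deposited values (left) and after quantile normalization (right); points are arrays and lines are group means. Egr2 array 2, at 2.65 deposited and 2.20 after quantile normalization, is the highest in both panels.

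After quantile normalization 87 genes were called (0.478% of all tested), 37 higher (0.203%) and 50 lower (0.275%), and all 10 genes of the deposited values stayed called in the same direction. At an unadjusted p under 0.05 there were 2200 (12.1%). The median difference over all genes moved from 0.09 to 0.01 and the median SE from 0.28 to 0.20. In 105 genes (0.577%) the 3 Egr2 arrays lay above the 12 others and in 81 (0.445%) below. Of the called genes 29 had no such overlap, 15 higher and 14 lower. The rule for naming genes was applied to these values after the data had been seen. Of the 24 genes it names by size, 2 kept their call with each of the 15 arrays left out in turn, Cdkn1a and Bcat1. Without Egr2 array 1 there were 16 of the 24 that lost it, without Egr2 array 2 there were 19, and without Egr2 array 3 there were 15. Up to 5 lost it without any 1 array of another hairpin.

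Among the higher genes, Podxl, a sialomucin of the cell surface, read -0.14, 0.74 and 0.85 with the Egr2 hairpin and between -1.63 and -0.35 in the 12 others. The LacZ arrays read -0.67, -0.94 and 0.78, the last inside the range of the Egr2 arrays. Podxl rose by 1.35 ± 0.31 (adjusted p = 0.0379), against 1.26 with an adjusted p of 0.231 on the deposited values. Gzmm, granzyme M of cytotoxic granules, read 4.78, 5.67 and 4.98, above the 12 others (3.10 to 4.52) and the LacZ arrays (4.25, 3.48 and 4.34). It rose by 0.94 ± 0.19 (adjusted p = 0.0177), against 1.11 with an adjusted p of 0.0742 on the deposited values. Smaller rises were those of Clstn1, the adhesion protein calsyntenin 1 (0.54, adjusted p = 0.0142), and Spns1, a lysosomal lipid transporter (0.58, adjusted p = 0.0433). Gdf3 (0.96), Edn2 (0.92), Psca (0.75), Tbx15 (0.69) and Pitpnm2os1 (0.47) also passed. Their levels lay near the arrays' lowest values, where Egr2 array 2 stopped at -1.45. The other, dimmer probe sets of Podxl (0.09), Clstn1 (0.39), Gdf3 (-0.03) and Tbx15 (0.15) did not pass in limma's test over all probe sets. Spns1 missed the threshold in that test (adjusted p = 0.0512).

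The lower genes included Rora, a nuclear receptor of lymphocyte lineages, at 1.72, 1.79 and 1.48 with the Egr2 hairpin and from 1.81 to 3.08 in the 12 others. It fell by 1.03 after quantile normalization (-1.03 ± 0.23, adjusted p = 0.0303), against -0.93 with an adjusted p of 0.188 on the deposited values. The LacZ arrays, at 1.41, 1.84 and 2.00, overlapped the Egr2 arrays. Fuca2, a fucosidase, read 2.20, 2.42 and 2.44 against 2.63 to 3.91 and fell by 0.99 (adjusted p = 0.0058), with LacZ at 3.22, 1.86 and 2.89. Trgv1, a variable segment of the T cell receptor gamma chain, read 1.72, 2.58 and 1.86 against a median of 2.91 in the 12 others and differed by -1.02 (adjusted p = 0.0206). Shisa2 (-1.34, adjusted p = 0.0111), Stk35os1 (-1.34, adjusted p = 0.0253), Stard6, of a family of lipid carriers (-1.27, adjusted p = 0.0321), the noncoding Lockd (-1.08, adjusted p = 0.0318), Tatdn2 (-0.78, adjusted p = 0.0436) and the splicing factor gene Prpf18 (-0.63, adjusted p = 0.0101) fell as well. None of these 6 was called on the deposited values, where Shisa2 and Stard6 came nearest (adjusted p = 0.0742 and 0.0616). Over all probe sets after quantile normalization, the other, dimmer ones of Fuca2 (-0.10 and 0.09), Shisa2 (-0.64) and Stk35os1 (-0.13) did not pass in limma. Tatdn2 missed the threshold in that test (adjusted p = 0.0512). For Rora 1 other probe set passed (-0.93, adjusted p = 0.014) and the rest did not.

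**Figure D4:**
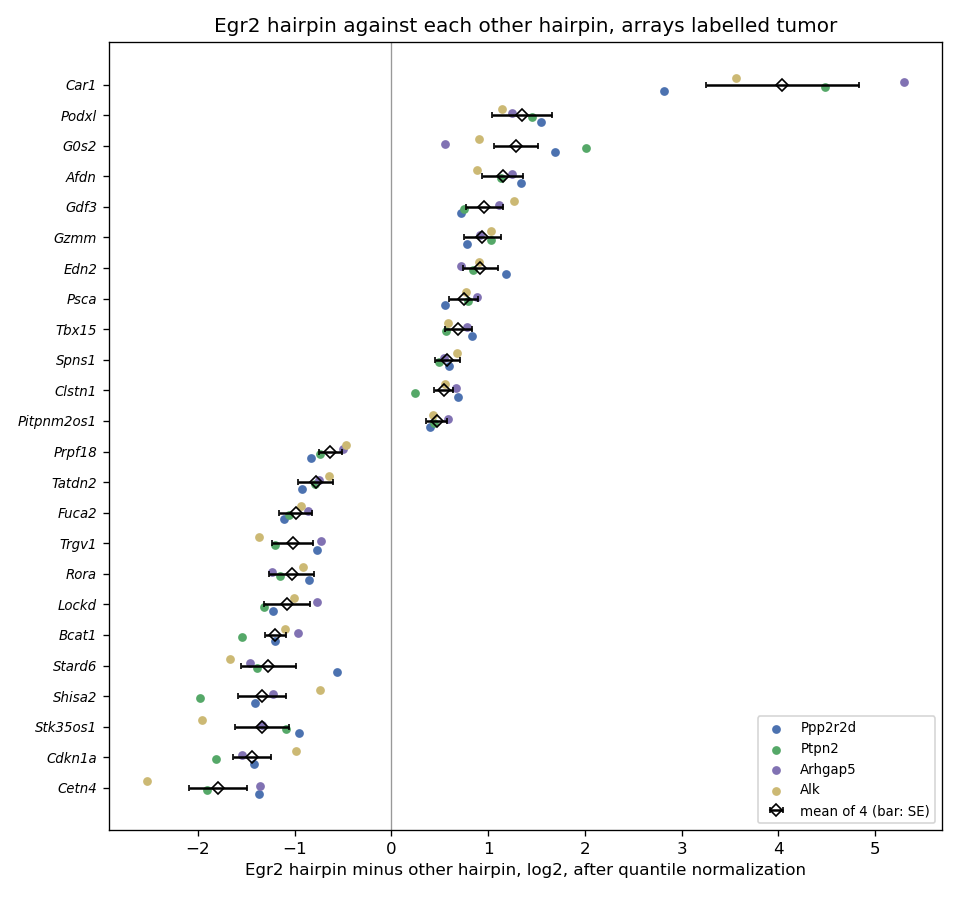
Log2 difference between the Egr2 hairpin and each other hairpin after quantile normalization (horizontal axis) for the 24 genes named by size; dots are the 4 single comparisons, which share the 3 Egr2 arrays, and diamonds with bars are the difference from the mean of 4 and its SE. The choice of genes without overlap puts the 4 dots of a gene on 1 side of zero, and they differ most for Car1 and G0s2.

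Taken 1 hairpin at a time, the count of called genes varied, and these comparisons share the 3 Egr2 arrays. On the deposited values 145 genes were called against Ppp2r2d (0.797%), 116 against Ptpn2 (0.638%), 69 against Arhgap5 (0.379%) and 21 against Alk (0.115%). The median difference over all genes was 0.19, 0.01, 0.25 and -0.07 in that order. After quantile normalization the counts were 310 (1.7%), 723 (3.97%), 165 (0.907%) and 483 (2.65%). Cdkn1a was lower than each: -1.61, -1.52, -1.30 and -0.91 on the deposited values, the last, against Alk, with an adjusted p of 0.2, and it was called against all 4 after quantile normalization. Bcat1 differed by -1.47, -1.35, -0.85 and -1.10, of which those against Arhgap5 (adjusted p = 0.265) and Alk (adjusted p = 0.0942) did not pass, and it too was called against all 4 after quantile normalization.

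Gzmb, granzyme B, shows how a call against the mean of 4 hairpins can rest on some of them. It read 2.95, 4.49 and 3.36 with Egr2, 4.47, 4.66 and 4.65 with Ppp2r2d, 6.46, 6.34 and 6.59 with Ptpn2, 3.17, 3.71 and 3.02 with Arhgap5 and 3.18, 2.96 and 3.89 with Alk. The Ptpn2 arrays were far above the others, and Egr2, Arhgap5 and Alk overlapped. Gzmb fell by 0.98 after quantile normalization (-0.98 ± 0.15, adjusted p = 0.000973) and did not pass on the deposited values (-0.83, adjusted p = 0.462). Against single hairpins Gzmb was called as lower against Ppp2r2d (adjusted p = 0.00263) and against Ptpn2, by 2.97 on the log2 scale (difference -2.97), and not against the others (differences -0.05 for Arhgap5, adjusted p = 0.973, and 0.10 for Alk, adjusted p = 0.881). Itga1, the collagen-binding integrin subunit CD49a, fell against the mean of 4 after quantile normalization (-1.26, adjusted p = 0.0433), a call that held in 7 of 15 fits with 1 array left out and ended without any single Egr2 array (adjusted p 0.0866 to 0.214). It was called lower against Ptpn2 (-3.24) and Alk (-1.49, adjusted p = 0.0283), and not against Arhgap5 (-0.98, adjusted p = 0.241) or Ppp2r2d (0.68, adjusted p = 0.502). Leaving out Ppp2r2d arrays 2 or 3, Arhgap5 arrays 2 or 3 or Alk array 2 ended it too.

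Of 28 gene lists, 24 had no called member on the deposited values and 21 had none after quantile normalization. With 0.055% of all genes called on the deposited values and 0.478% after quantile normalization, a list of this size without a call is not a result about the list. Leaving aside the erythroid and sex-linked lists, the medians of the other 26 ran from -0.15 to 0.37 (-0.20 to 0.32 after quantile normalization). Among 30 genes linked to Egr2 and Egr3 in T cells, 1 was called lower, Cdkn1a, and 0 were called higher. Their median difference was 0.10 (0.00 after quantile normalization) beside 0.09 (0.01) over all genes. Members that did not pass, named in this and the next paragraph after their values were seen, included the transcription factor genes Id3 (0.40), Zbtb16 (-0.46) and Nfil3 (-0.42). Of 6 genes of the Egr and Nab family none was called, and the list's median was 0.15: the related factors Egr1 and Egr3 differed by 0.10 and 0.40 and the corepressor genes Nab1 and Nab2 by 0.19 and 0.02. Of 28 cell cycle inhibitors and p53 targets, 1 was called lower, again Cdkn1a, and the median was 0.08. Its relative Cdkn1b differed by 0.09, and the p53 targets Mdm2, Ccng1 and Psrc1 by 0.17, -0.30 and -0.95, none of which passed. None of 31 genes of the cell cycle itself was called, with a median of 0.04.

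The lists of T cell programmes are read against the same shares. Of 23 cytotoxic effector genes none was called on the deposited values, and after quantile normalization 1 was called higher, Gzmm, and 1 lower, Gzmb. The pore protein gene Prf1 was at 0.50 and the granzyme genes Gzma and Gzmk at 0.43 and -0.66. Of 17 inhibitory receptor and exhaustion genes none was called on either scale (median -0.04), with Pdcd1 at -0.03, Lag3 at -0.06 and the exhaustion factor Tox at 0.26. None of 11 T cell identity genes, 16 naive and memory genes, 20 cytokine and chemokine genes or 23 immediate early genes was called. Medians were 0.25, 0.18 and 0.32 for the first, second and last of these lists, and 0.11, 0.03 and 0.17 after quantile normalization. The T cell identity genes had mean levels of 5.99, 6.76 and 5.87 in the Egr2 arrays and 4.69 to 6.57 in the 12 others, the low end being Ptpn2 array 1. Markers of other cells showed none of 13 melanocyte genes (median 0.02) and none of 20 myeloid genes (median 0.09) called. Of 11 neutrophil genes none was called on the deposited values, and Mpo, the myeloperoxidase of immature granulocytes, rose after quantile normalization (1.29, adjusted p = 0.0115), though not without Egr2 array 2 (0.87, adjusted p = 0.235).

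Whether these differences varied with the tissue label was tested as an interaction. On the deposited values limma called 0 genes, while 732 (4.02%) had an unadjusted p under 0.05. After quantile normalization 43 were called (0.236%), and 1794 (9.86%) had an unadjusted p under 0.05. In arrays labelled spleen alone, 51 genes were called (0.28%), and 241 after quantile normalization (1.32%). Bcat1 differed by -1.20 in arrays labelled tumor and by -0.22 in those labelled spleen, a tissue difference of -0.98 ± 0.16 (adjusted p = 0.00212) after quantile normalization, against -1.02 with an adjusted p of 0.562 on the deposited values. For Cdkn1a the difference in arrays labelled spleen was -0.67 ± 0.21 (adjusted p = 0.311), and its tissue difference did not pass after quantile normalization (-0.77, adjusted p = 0.305). After quantile normalization granzyme M rose in arrays labelled tumor and had a difference of -0.31 in those labelled spleen. Its tissue difference was 1.25 ± 0.27 (adjusted p = 0.0381), against 1.41 with an adjusted p of 0.239 on the deposited values.

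**Figure D5:**
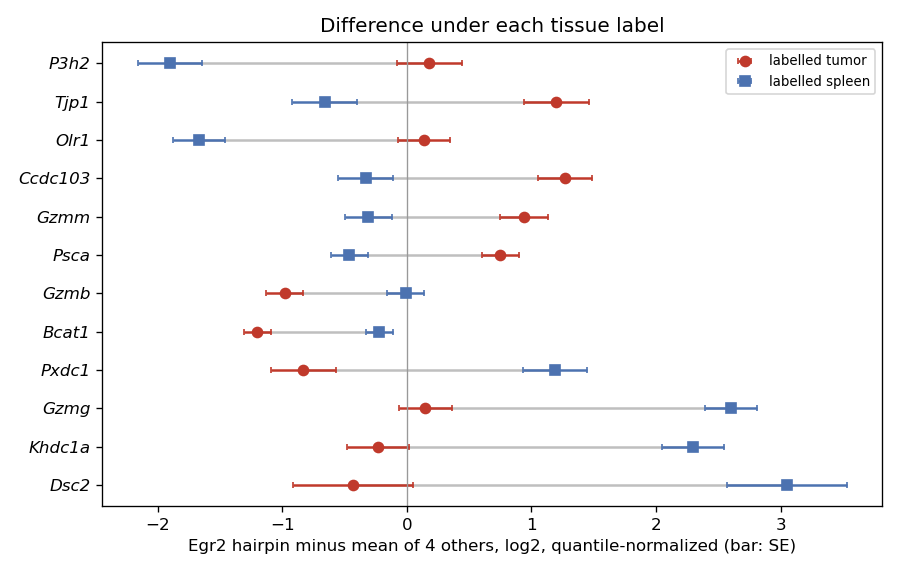
Log2 difference between the Egr2 hairpin and the mean of 4 others after quantile normalization (horizontal axis), with SE bars, in arrays labelled tumor (red circles) and labelled spleen (blue squares), for 12 genes whose tissue difference passed. Bcat1 is at -1.20 and -0.22, and Gzmg, Khdc1a and Dsc2 are at 2.60, 2.30 and 3.05 under the spleen label.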

How the data were processed

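Affymetrix 3' arrays with 1 channel measured RNA in 36 samples, 12 groups of 3. Total RNA was labelled with biotin, per the labels. The range of the authors' deposited values shows a log2 scale, and they come from RMA per the submitters' processing notes. Its version was not given in the sources used here. Centring is not stated, so levels are compared between arrays only. Of 45101 probe sets 34945 carried 1 symbol, 932 several and 9211 none listed. Each gene was read from its probe set of highest mean level across all 36 arrays.

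Fits used limma 3.58.1 under R 4.3.3 (tables read with the data.table package, version 1.17.8): lmFit with 1 coefficient per group over 36 arrays (24 residual and 6.75 prior degrees of freedom), eBayes, and a two-sided contrast, adjusted over 18193 genes in each of 7 comparisons. Quantile normalization used all probe sets. The procedure was tested on simulated data. The number of arrays limits the precision.

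Named genes are called genes whose Egr2 arrays do not overlap the 12 others, up to 12 in each direction by size (filled to 5 with overlapping called genes), up to 4 called members of each list, the targets with Egr1, Egr3 and Nab2, and 4 in each direction of the tissue difference. Predicted genes were skipped. The comparison, the lists and the rule were chosen with earlier results of these data known. The 28 lists held 433 measured of 473 genes. Alternatives were cyclic loess, other probe set rules, a filter, fewer arrays, array weights, other references, a replicate block and single arrays left out.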

Additional observations from a re-analysis of the deposited data

Results flagged for a closer look

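After quantile normalization 43 genes passed limma's interaction term for the tissue label (labelled tumor minus labelled spleen, ± SE), and the 12 of them named here were taken by the naming rule. None of them passed on the deposited values. Differences between the Egr2 hairpin and the mean of the 4 others are given first for arrays labelled tumor and then for arrays labelled spleen, and the gap between them is what was tested.

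In 6 genes the difference was larger in arrays labelled tumor. Bcat1 was at -1.20 and -0.22, with a term of -0.98 ± 0.16 (adjusted p = 0.00212), and Gzmb, granzyme B, at -0.98 and -0.01, with -0.96 ± 0.21 (adjusted p = 0.0381). The other 4 had opposite signs. Gzmm, granzyme M, was at 0.94 and -0.31, with a term of 1.25 ± 0.27 (adjusted p = 0.0381). Psca, a surface protein held by a lipid anchor, was at 0.75 and -0.46, with 1.21 ± 0.21 (adjusted p = 0.0048). Tjp1, a tight junction protein, was at 1.20 and -0.66, with 1.86 ± 0.37 (adjusted p = 0.019), and Ccdc103 at 1.27 and -0.33, with 1.60 ± 0.31 (adjusted p = 0.0174). In arrays labelled tumor Tjp1 read -0.74, -0.08 and -0.45 with Egr2 and 0.80, -0.59 and -0.42 with Ptpn2 after quantile normalization. These groups overlapped, and the rise lay against the Ppp2r2d, Arhgap5 and Alk arrays, the highest of which read -1.53.

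In the other 6 the difference was larger in arrays labelled spleen. In arrays labelled tumor, Gzmg, Olr1 and Khdc1a were low with every hairpin. After quantile normalization the 12 others ran from -3.10 to -2.61 for Gzmg, -3.32 to -2.78 for Olr1 and -3.18 to -2.15 for Khdc1a. The Egr2 arrays lay between -3.14 and -2.32 for these genes. At such levels a difference under the tumor label could hardly show, so these terms cannot tell whether a hairpin difference depends on the label. Gzmg, a granzyme of the cluster that also holds Gzmd to Gzmf, was at 0.15 and 2.60, with a term of -2.46 ± 0.29 (adjusted p = 4.17e-05). It read 4.88, 4.05 and 4.44 in the Egr2 arrays labelled spleen and -0.04 to 3.27 in the 12 others. Olr1, a scavenger receptor for oxidised lipoprotein, was at 0.14 and -1.67, with a term of 1.81 ± 0.30 (adjusted p = 0.00298). Its levels were -1.13, -0.28 and -0.74 against 0.18 to 2.07. Dsc2, a desmosomal cadherin, was at -0.43 and 3.05, with a term of -3.47 ± 0.68 (adjusted p = 0.0174), and read 1.65, 1.75 and 1.52 against -2.88 to -0.64. Khdc1a was at -0.23 and 2.30, with a term of -2.54 ± 0.35 (adjusted p = 0.000332), and its Egr2 arrays labelled spleen (1.97, 1.00 and 0.77) overlapped the others, which reached 3.07. P3h2, a collagen prolyl hydroxylase, was at 0.18 and -1.90, with 2.08 ± 0.37 (adjusted p = 0.00788), and Pxdc1 at -0.83 and 1.19, with -2.02 ± 0.37 (adjusted p = 0.00877). P3h2 was also low in arrays labelled tumor after quantile normalization. It ran from -2.57 to -1.46 in the 12 others and read -2.39, -1.60 and -1.90 with Egr2, so its term has the same limit.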

How the results depend on the processing

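After quantile normalization 87 genes were called (37 higher, 50 lower), with 43 for the tissue difference and 310, 723, 165 and 483 against Ppp2r2d, Ptpn2, Arhgap5 and Alk. Cyclic loess gave 68 (23 and 45), 31 for the tissue difference and 372, 464, 122 and 92, and turned Nab2 to -0.10 and Egr1 to -0.05 (Nab2 -0.07 with quantile). The mean of a gene's probe sets gave 5 called, 2 of them lower, 3 for the tissue difference, 38 against Arhgap5 and 10 against Alk, with Ptpn2 at -0.04. The low-level filter gave 19, 10 of them higher, 218 against Ppp2r2d and 39 against Alk. A fit of the 15 arrays alone gave 2, 0 higher and 2 lower, and 21, 27 and 6 against Ppp2r2d, Ptpn2 and Arhgap5. Array weights stopped before convergence (0.0645 for Egr2 array 2, 58.0 for Alk array 2) and gave 2146 (141 and 2005), 1501 for the tissue difference and 3779, 39, 914 and 8305 against single hairpins, with Egr1 at -0.17, Egr3 at -0.05, Nab2 at -0.15 and Ptpn2 at -0.09.

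Without Ppp2r2d in the reference 20 genes were called (8 and 12), with Egr1 at -0.02. Without Ptpn2 there were 9 higher, 3 lower and 5 for the tissue difference. Without Arhgap5 there were 5 called, 1 higher, 6 for the tissue difference, and Nab2 at -0.13. Without Alk the tissue difference called 1. Ppp2r2d and Alk alone gave 2 higher, 9 for the tissue difference (81 quantile), and turned Egr3 to -0.09 (quantile -0.08), Kdm5d to 0.00 (0.04), Orly to 0.41 (0.33), Uty to 0.05 (0.05), Xist to -0.01 (-0.06), Nab2 to -0.18 and Ptpn2 to 0.00 (-0.03).

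Leaving out single arrays gave 2 (without Egr2 array 1) to 28 calls (without Ptpn2 array 2), 1 to 20 higher and 1 to 11 lower. Together with quantile normalization they gave 21 (without Egr2 array 2) to 237 (without Ptpn2 array 2), 5 to 112 higher and 16 to 125 lower. The tissue difference called 0 to 10 (quantile 21 to 103, the last without Ptpn2 array 1). The Ppp2r2d and Alk reference, and leaving out arrays other than Ptpn2 array 1 together with quantile normalization, were added after seeing the data. Calls against Ppp2r2d ranged from 37 to 251, Ptpn2 from 36 to 2050, Arhgap5 from 6 to 83 and Alk from 3 to 1337. Genes near 0 changed sign: Alk from -0.56 to 0.22, Egr1 from -0.17 to 0.27 (quantile -0.02 to 0.03), Nab2 from -0.14 to 0.15 (quantile -0.15 to 0.06) and Ptpn2 from -0.15 to 0.43 (quantile -0.01 to 0.12). The cause of these changes was not tested.

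Pairing by replicate number was looked at between hairpins in arrays labelled tumor, on the deposited values. Residual correlations of 30 same-numbered pairs ran from -0.53 to 0.45, and 9 exceeded 0.1. The unequal distributions of the arrays enter these correlations, so they do not settle whether the numbers pair arrays. Same-numbered arrays labelled tumor and labelled spleen were not compared, and the tissue difference was fitted without pairing. A replicate block gave 12 calls (6 and 6), 0 for the tissue difference, 130, 103, 55 and 17 against single hairpins, and Egr2 at 0.68.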

Other observations

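Neighbours of Gzmg in the granzyme cluster, looked at after its value was seen, had interaction terms of -1.81 for Gzmd, -1.61 for Gzme and -1.30 for Gzmf after quantile normalization, and all 3 passed (adjusted p = 4.17e-05, 7.22e-05 and 0.012). In arrays labelled tumor the 12 other hairpin arrays read -3.55 to -3.36 for Gzmd, -3.42 to -3.00 for Gzme and -2.88 to -2.16 for Gzmf. The Egr2 arrays were as low, so a difference under that label could hardly show.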
